A study of Homo sapiens with 4 samples.

Results

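The 10 genes described here encode 9 apolipoproteins or apolipoprotein-named plasma proteins (APOA1, APOA2, APOA4, APOA5, APOB, APOC3, APOE, APOH and APOM) and MTTP, the microsomal triglyceride transfer protein. They were taken from a list of genes of lipoprotein assembly, and all 10 were measured among the 18417 genes tested. Their level was read in HuH7, an established human hepatocellular carcinoma line that keeps many hepatocyte functions. Control cells (2 arrays) stably carried a control shRNA, and knockdown cells (2 arrays) stably carried shRNA against MKL1 and MKL2. These are now named MRTFA and MRTFB, and they are actin-regulated coactivators of serum response factor (SRF). Both groups were made with lentivirus from the pLKO.1 vector, selected with puromycin for 7 days, kept below 10 passages and grown in medium with 10% FBS. The series asks which transcripts are MKL1/2-dependent. The replicates are called biological, with nothing said of separate infections, so the p-values measure the spread between these samples, which may be technical.

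Hepatocytes load triglyceride onto APOB through MTTP and secrete the particle as very low density lipoprotein (VLDL). They also secrete APOA1 and APOA2, which form high density lipoprotein (HDL) with lipid taken up from cells. Smaller apolipoproteins move between particles and control how fast these are broken down: APOC3 slows the clearance of triglyceride-rich particles, APOA5 speeds it, and APOE is the ligand through which remnants are taken up.

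In limma, 0 of the 10 genes had an adjusted p under 0.05, against 0.174% of all genes tested (32 of 18417), and 1 of the 10, MTTP, had an unadjusted p under 0.05, against 14.3% of all genes. APOA1, APOA2, APOB, APOE, APOH, APOA4 and APOA5 differed from control by less than 0.2 on the log2 scale. APOC3 and APOM had the largest differences, and in each of them a single knockdown array carried most of it. The groups did not overlap for 5 of the 10 genes, a share near the 45.5% of all genes. None of the 10 differed by 2-fold or more, as 0.532% of all genes did. The 95% interval of the difference lay within a 2-fold change both ways for 8 of the 10, all but APOC3 and APOM, against 97.3% of all genes. These intervals come from limma's moderated standard errors and are not adjusted for the number of genes. The median log2 difference of the 10 genes was 0.037, against 0.0082 over all genes. In bulk RNA, fewer cells of a type and less RNA per cell cannot be told apart.

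**Figure D1:**
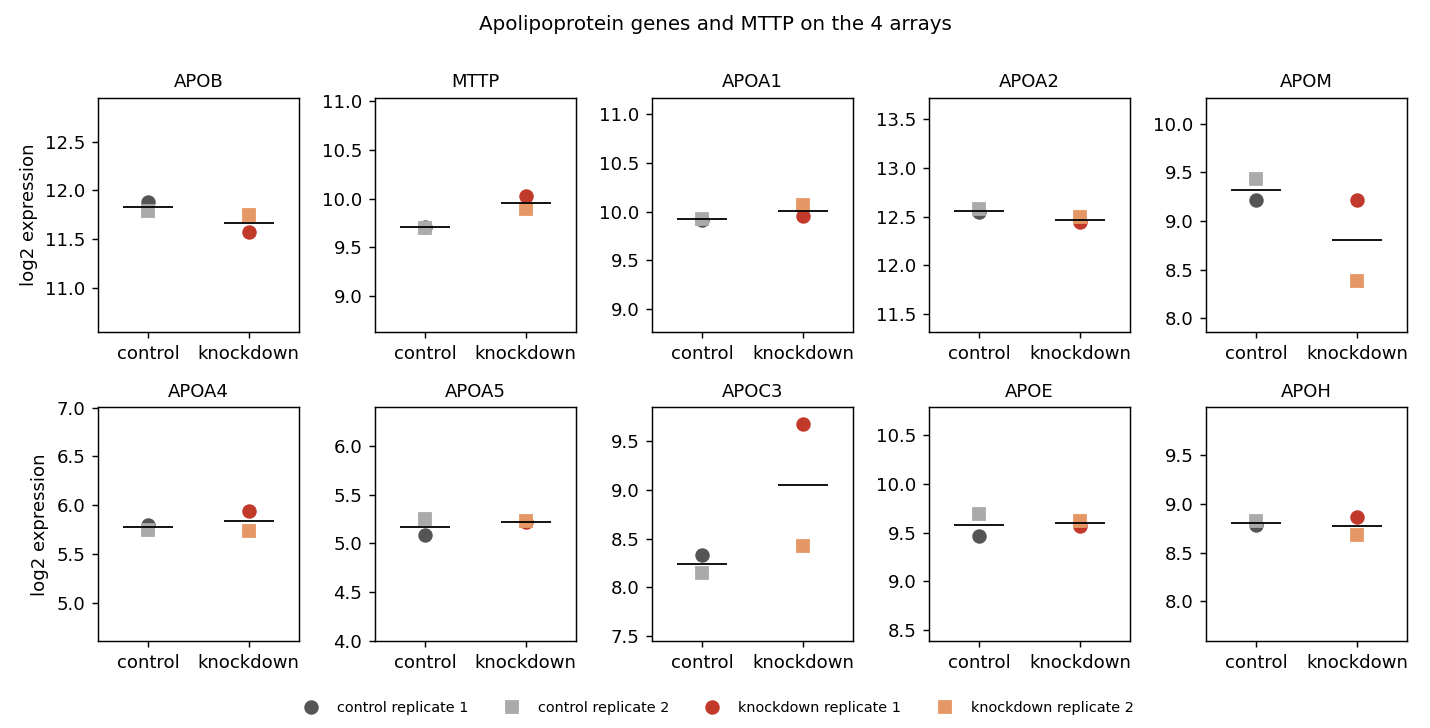
Log2 expression of the 10 genes (vertical axis, each panel spanning the same range) on 2 control arrays (grey) and 2 knockdown arrays (red and orange), with group means as black lines. The 2 knockdown arrays lie apart for APOC3 (9.68 and 8.43) and APOM (9.22 and 8.38) and close together for the other 8 genes.

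The arrays themselves were checked on the shRNA targets. The probe that lists MRTFA, which also lists RBM15, read 7.77 and 7.80 in control and 6.81 and 6.91 after knockdown, and differed by -0.93 on the log2 scale (SE 0.096, limma adjusted p = 0.0404). MRTFB read 7.20 and 7.22 in control and 6.84 and 7.11 in knockdown cells (limma adjusted p = 0.448). SRF read 9.80 and 9.97 against 9.37 and 9.52 (limma adjusted p = 0.188). Over genes, the SD of the log2 difference was 0.154 between the control arrays and 0.265 between the knockdown arrays. Of 14 hepatocyte markers, 13 lay above the upper quartile of all probes on all 4 arrays, with ALB, which encodes albumin, between 12.18 and 12.43. None of the stellate cell or endothelial markers did so, though LUM, on the stellate cell and fibroblast list, fell short on knockdown replicate 1 only. Of 9 macrophage markers 2 did, CD68 and LYZ, with LYZ between 12.02 and 12.25. So did 3 of 8 bile duct markers, and of 10 enterocyte markers VIL1 alone, which encodes the microvillus protein villin. Arrays give no true zero, so no marker is at 0.

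APOB, the structural protein of VLDL and of the low density lipoprotein made from it, read 11.88 and 11.79 in control cells and 11.58 and 11.74 in knockdown cells. Both knockdown arrays lay below both controls, and the lower was replicate 1. The log2 difference was -0.17 (SE 0.11, 95% interval -0.43 to 0.090, limma adjusted p = 0.532), so that a fall to under 0.742 of the control level lay outside the interval.

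MTTP, the lipid transfer protein without which APOB is degraded instead of secreted, read 9.71 and 9.70 in control cells and 10.02 and 9.89 in knockdown cells. Both knockdown arrays lay above the controls, which were nearly equal. The log2 difference was 0.25 (SE 0.099, 95% interval 0.011 to 0.49), a factor of 1.19, with a limma unadjusted p of 0.043 and an adjusted p of 0.330. The gap between the groups was larger than that between the 2 knockdown arrays (0.13), but differences as far from 0 for their spread were common over all genes. The adjusted p ranged from 0.122 to 1.00 over the sets of 3 arrays and from 0.241 to 0.517 over the other settings. The 3 genes outside the list with the most similar values were FBP2, ZDHHC8 and RIBC2, at Euclidean distances of 0.0051, 0.0086 and 0.014 between log2 profiles centred on their mean over the 4 arrays.

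The sequences around the MTTP and APOM start sites are shown because MTTP has the smallest p of the 10 genes and APOM the largest difference below control, and because SRF, the partner of MKL1 and MKL2, binds the CArG box. Promoter windows (250 bases before to 50 after a start site, RefSeq, GRCh38.p14) were matched for 7 of the 10 genes, with 11 start sites in all; APOA1, APOB and APOC3 had no entry. Capitals mark matches on either strand to the TATA box, spelled TATAAA. They also mark the CCAAT box, and the core motif of nuclear receptors, spelled AGGTCA. The CArG box was searched for as well. The matches do not overlap each other in the windows printed. The plus-strand MTTP windows lie at chr4:99563880-99564179 and chr4:99574574-99574873 and the plus-strand APOM window at chr6:31655644-31655943, and they read as follows.
MTTP upstream start: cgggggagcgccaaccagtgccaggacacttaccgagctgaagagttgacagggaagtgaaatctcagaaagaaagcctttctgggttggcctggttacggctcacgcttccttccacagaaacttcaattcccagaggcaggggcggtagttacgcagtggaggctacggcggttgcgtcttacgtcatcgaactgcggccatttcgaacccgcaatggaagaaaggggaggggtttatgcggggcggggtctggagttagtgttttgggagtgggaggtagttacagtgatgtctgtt
MTTP downstream start: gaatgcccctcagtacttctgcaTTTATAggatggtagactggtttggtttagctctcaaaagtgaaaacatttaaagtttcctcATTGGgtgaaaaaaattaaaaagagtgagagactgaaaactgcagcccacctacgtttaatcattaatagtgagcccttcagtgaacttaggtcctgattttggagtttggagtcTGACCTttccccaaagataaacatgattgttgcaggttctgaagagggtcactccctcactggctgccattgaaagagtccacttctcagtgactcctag
APOM: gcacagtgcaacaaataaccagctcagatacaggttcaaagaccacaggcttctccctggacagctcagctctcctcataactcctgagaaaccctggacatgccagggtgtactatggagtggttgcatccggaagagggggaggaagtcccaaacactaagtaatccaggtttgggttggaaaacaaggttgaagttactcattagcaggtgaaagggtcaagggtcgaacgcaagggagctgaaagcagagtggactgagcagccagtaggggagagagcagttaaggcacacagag

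No CArG box was found in any of the 11 windows, and 1.29% of 35116 RefSeq promoter windows of the same length hold it. The downstream MTTP window holds 1 match each to the TATA box, the CCAAT box and the nuclear receptor motif, all on the reverse strand, with their leftmost bases at -227, -165 and -50 from the start site. The upstream MTTP window and the APOM window hold none of the 4 motifs. Over all windows, the TATA box is found in 11.5%, the nuclear receptor motif in 13.8% and the CCAAT box in 34.6%. APOA5, whose windows are not printed, holds the nuclear receptor motif at both of its start sites. At 1 of them it also holds matches to the TATA box and the CCAAT box. Their leftmost bases lie at -1 and -30, so the TATAAA letters run across the start site. APOE holds the CCAAT box at 2 of 3. A match is a description of letters and says nothing of binding, and no match says only that these letters are not in the window.

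The HDL proteins were close to their control level. APOA1, the main protein of HDL and the activator of cholesterol esterification on it, read 9.91 and 9.92 in control cells and 9.95 and 10.06 in knockdown cells. The knockdown arrays lay just above the controls, with a log2 difference of 0.090 (SE 0.097, 95% interval -0.15 to 0.33, limma adjusted p = 0.742). The other APOA1 probe, which lists the same transcripts, gave a difference of 0.081. APOA2, the second protein of HDL, read 12.55 and 12.58 in control cells and 12.45 and 12.49 in knockdown cells. Both knockdown arrays lay below the controls, by little: the log2 difference was -0.093 (SE 0.093, 95% interval -0.32 to 0.13, limma adjusted p = 0.721). APOA2 lay near the top of the scale, where the highest values of the 4 arrays are 13.40 to 13.65.

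APOM, a lipocalin that carries sphingosine-1-phosphate on HDL, went apart from APOA1 and APOA2. It read 9.22 and 9.43 in control cells, 9.22 in knockdown replicate 1 and 8.38 in knockdown replicate 2. Replicate 1 thus lay level with a control and replicate 2 lay 0.94 below the control mean, so the groups overlapped. The log2 difference was -0.52 (SE 0.26, 95% interval -1.16 to 0.12, limma adjusted p = 0.434). It was -0.94 without knockdown replicate 1 and -0.10 without knockdown replicate 2. The 3 APOM probes held identical values in all 4 arrays and count as 1 measurement. A gap between the knockdown arrays as large as that of APOM (0.84) was found for 203 of 18417 genes, or 1.10%. The genes with the most similar values were LINC01356, TBX4 and NCKAP5, at distances of 0.084, 0.12 and 0.13; they were looked up after the values of APOM were seen.

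APOC3, which inhibits the lipolysis and uptake of triglyceride-rich particles, had the largest difference of the 10 genes. It read 8.33 and 8.15 in control cells, 9.68 in knockdown replicate 1 and 8.43 in knockdown replicate 2. Both knockdown arrays lay above the controls, replicate 1 by 1.44 and replicate 2 by 0.19 over the control mean, and the controls themselves differed by 0.18. The log2 difference was 0.81 (SE 0.37, 95% interval -0.094 to 1.72, limma adjusted p = 0.392), a factor of 1.76 with an interval from 0.937 to 3.29. Without knockdown replicate 2 it was 1.44, and without knockdown replicate 1 it was 0.19. The other APOC3 probe, which lists the same transcripts, read 8.33 and 8.12 in control cells and 9.64 and 8.44 in knockdown cells. It gave the same difference of 0.81. Both probes read the same RNA on the same arrays, so the second adds no replicate. The level in replicate 1 was 2.38 times that in replicate 2, and 63 of 18417 genes (0.342%) had a gap as large.

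**Figure D2:**
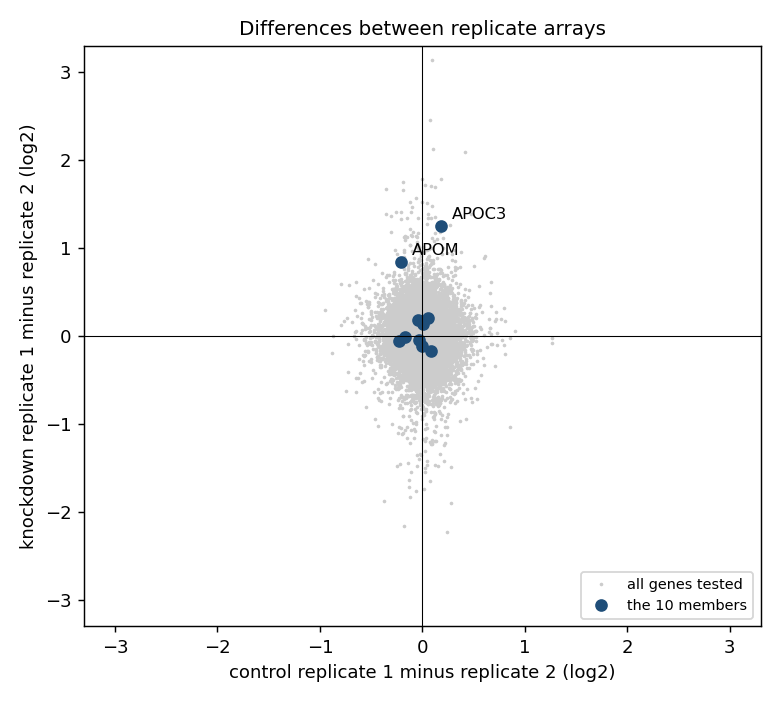
Log2 difference between the 2 control arrays (horizontal) and between the 2 knockdown arrays (vertical) for all 18417 genes tested (grey) and the 10 members (blue). APOC3 (1.25) and APOM (0.84) lie above the bulk of genes on the vertical axis, while the other 8 members lie within 0.202 of 0 on it.

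The genes with values most like those of APOC3 were APOD, GCKR and MLLT3, at distances of 0.20, 0.22 and 0.24, looked up after the values of APOC3 were seen. APOD, a lipocalin apolipoprotein, read 6.89 and 6.93 in control cells, 8.28 in knockdown replicate 1 and 6.94 in replicate 2. GCKR, the regulatory protein of glucokinase, read 4.18 and 4.28 in control cells, and 5.67 and 4.53 in knockdown cells. AADAC, a lipase of the endoplasmic reticulum on the VLDL list and also named after its values were seen, read 6.28 and 5.87 in control cells, 8.08 in knockdown replicate 1 and 5.99 in replicate 2. Each of these 3 was highest in knockdown replicate 1, as APOC3 was, and none passed with all 4 arrays. They were picked for that, and the lists as a whole did not show it. On the VLDL list, 11 of 30 genes read higher in knockdown replicate 1 than in replicate 2. Over all pathway and neighbour lists, 51 of 117 did. Markers of several cell types also stood higher in knockdown replicate 1 than in replicate 2: 11 of 14 hepatocyte, 8 of 10 enterocyte, 6 of 8 bile duct, 7 of 8 endothelial and 8 of 9 macrophage markers, against 5 of 10 stellate cell and fibroblast markers. Over all genes 9605 of 18417 did so. Many of these markers were dim: 6 of 8 endothelial and 7 of 9 macrophage markers lay below the median of all probes on all 4 arrays. The same held for 5 of 10 enterocyte, 5 of 10 stellate cell and fibroblast, 3 of 8 bile duct and 0 of 14 hepatocyte markers. The summed log2 level of the 10 enterocyte markers was 59.6 and 59.7 in control cells, 61.1 in knockdown replicate 1 and 57.2 in replicate 2, and that of the 14 hepatocyte markers 152.8 and 153.1, then 154.5 and 151.8. That of the 10 stellate cell and fibroblast markers ran the other way. It was 53.1 and 53.5 in control cells, 52.6 in knockdown replicate 1 and 54.4 in replicate 2. Single genes carried much of the gaps between the knockdown sums. In knockdown replicates 1 and 2, RBP2 read 8.09 and 6.37 and CDX2 7.73 and 6.82 among enterocyte markers. HP read 7.91 and 6.81 among hepatocyte markers. Among stellate cell and fibroblast markers, LUM read 7.13 and 8.60 and PDGFRA 4.95 and 5.82. The part of the markers in the APOC3 values was not tested.

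APOA5, which promotes triglyceride clearance by lipoprotein lipase, read 5.08 and 5.26 in control cells and 5.22 and 5.23 in knockdown cells. The knockdown values lay between the controls, with a log2 difference of 0.055 (SE 0.10, 95% interval -0.20 to 0.31, limma adjusted p = 0.871). It was the 1 member among the dimmest 40% of genes, below the median of all probes on each array (5.68 to 5.73), and no background level is known. APOA4, an apolipoprotein made mainly in the intestine in humans, read 5.80 and 5.74 in control cells and 5.94 and 5.73 in knockdown cells. The groups overlapped, with a log2 difference of 0.064 (SE 0.11, 95% interval -0.20 to 0.33, limma adjusted p = 0.851), and the second APOA4 probe gave 0.11.

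APOA5, APOA4, APOC3 and APOA1 lie next to each other on chromosome 11, in that order in the RefSeq annotation, and share regulatory DNA. The 3 genes beside APOC3 did not share its high value in knockdown replicate 1, where APOA1 lay 0.035, APOA4 0.17 and APOA5 0.052 above their control means. The same stretch of the chromosome holds TAGLN, the transgelin gene and a known target of MKL and SRF, the 4th annotated neighbour listed after APOA1. TAGLN was the 1 of the 7 neighbours that passed, against 0.0923% of all genes called lower. It fell from 8.41 and 8.50 to 5.58 and 5.95 (log2 difference -2.69, SE 0.14, limma adjusted p = 0.00679). The neighbours between APOA1 and TAGLN, SIK3, PAFAH1B2 and SIDT2, lay at -0.15, -0.22 and 0.21, and PCSK7 beyond TAGLN lay at -0.16, with limma adjusted p between 0.383 and 0.702.

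**Figure D3:**
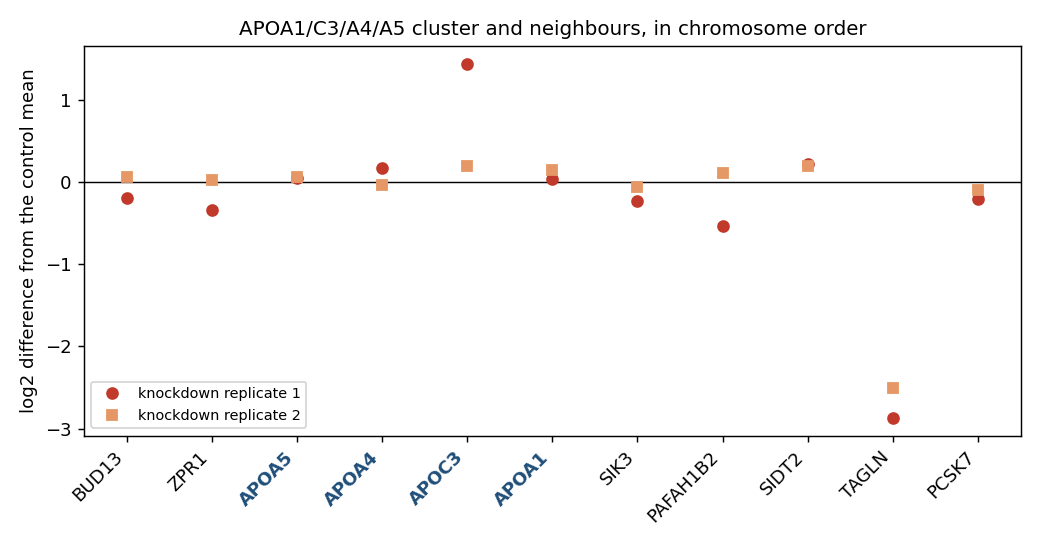
Log2 difference of each knockdown array from the control mean (vertical axis) for the 4 clustered apolipoprotein genes (blue names) and 7 neighbours, in chromosome order but not to distance. TAGLN lies at -2.87 and -2.51, and APOC3 at 1.44 in replicate 1 and 0.19 in replicate 2.

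APOE, the ligand for remnant uptake by receptors, read 9.46 and 9.69 in control cells and 9.57 and 9.62 in knockdown cells. The knockdown values lay between the controls, and the log2 difference was 0.019 (SE 0.11, 95% interval -0.25 to 0.29, limma adjusted p = 0.964), the smallest of the 10. Its neighbour APOC1, an inhibitor of lipoprotein uptake, read 9.89 and 9.97 in control cells and 10.11 and 9.82 in knockdown cells. None of the 5 measured genes beside APOE passed in limma (1 at an unadjusted p under 0.05), and NECTIN2, a cell adhesion receptor, had the smallest p and lay at 0.23 (SE 0.094, limma adjusted p = 0.339). BCAM lay at 0.16 and TOMM40 at -0.12.

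APOH, also called beta-2-glycoprotein I, binds phospholipids and circulates mostly free of lipoproteins. It read 8.78 and 8.83 in control cells and 8.87 and 8.68 in knockdown cells. The knockdown arrays lay on either side of the controls, with a log2 difference of -0.029 (SE 0.11, 95% interval -0.29 to 0.23, limma adjusted p = 0.940).

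**Figure D4:**
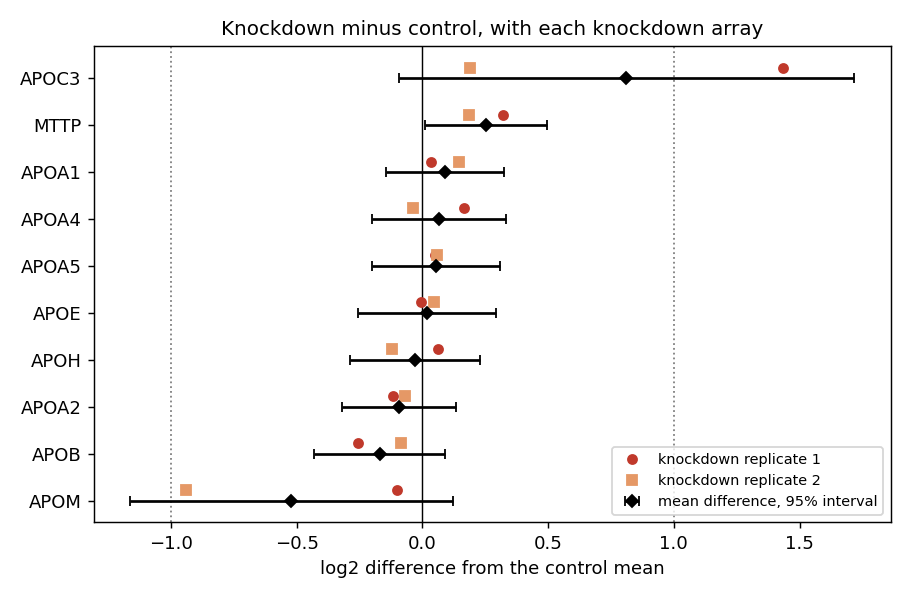
Log2 difference of knockdown from control for each member (diamonds) with its 95% interval, and each knockdown array against the control mean (circles for replicate 1, squares for replicate 2). Dotted lines mark a 2-fold change, and the interval of MTTP (0.011 to 0.49) alone leaves out 0.

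Lists of the lipoprotein pathway, and of the neighbours of the chromosome 11 cluster and of APOE, together held 117 further genes. TAGLN alone of the 117 passed an adjusted p of 0.05. It was listed as a chromosome 11 neighbour, and no gene of the lipoprotein lists passed. At an adjusted p under 0.1, 5 of the 117 passed, against 0.782% of all genes: LIPG, PPARG, PON1 and MLXIPL beside TAGLN. At an unadjusted p under 0.05 there were 7 lower and 12 higher, or 16.2%, close to the 14.3% of all genes.

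Of 16 further apolipoproteins and HDL-bound proteins measured, none passed in limma (3 higher at an unadjusted p under 0.05), with a median log2 difference of 0.083. PON1, the antioxidant esterase carried on HDL, read 6.57 and 6.73 in control cells and 7.31 and 7.27 in knockdown cells, a difference of 0.64 (SE 0.10, limma adjusted p = 0.0980). APOL6, among the dimmest 40% of genes, lay at 0.71 (SE 0.21) and read 5.89 on the first and 5.24 on the second knockdown array. The mitochondrial APOO lay at 0.37 (SE 0.11).

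Of 30 genes listed for VLDL loading and export, none passed in limma (1 lower and 2 higher at an unadjusted p under 0.05), and 15 lay lower and 15 higher. SAR1B, the GTPase that coats vesicles for large lipoproteins, read 8.18 and 8.32 in control cells and 8.67 and 8.57 in knockdown cells (difference 0.37, SE 0.10, limma adjusted p = 0.215). SURF4, a cargo receptor for lipoprotein export, lay at 0.33 (SE 0.096, limma adjusted p = 0.223). The 1 lower gene, ACAT2, lay at -0.39 (SE 0.13). It is the cytosolic thiolase of sterol synthesis and does not itself load or export VLDL. The list's median was -0.0031.

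Of 16 genes of HDL formation and remodelling, none passed in limma (1 lower and 1 higher at an unadjusted p under 0.05), with a median of 0.047. LIPG, the endothelial lipase that breaks down HDL phospholipids, read 7.51 and 7.38 in control cells and 6.26 and 6.58 in knockdown cells. Both knockdown arrays lay well below both controls, at 0.492 of the control level (difference -1.02, SE 0.14, limma adjusted p = 0.0688). ABCA1, which exports lipid to APOA1, read 7.18 and 7.19 in control cells and 7.48 and 7.74 in knockdown cells (difference 0.42, SE 0.12, limma adjusted p = 0.214). The sterol exporter gene ABCG8, among the dimmest 40% of genes, lay at 0.17 (SE 0.095).

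Of 17 genes of lipoprotein uptake, none passed in limma (1 lower and 3 higher at an unadjusted p under 0.05), with a median of 0.094. SORL1, a sorting receptor that binds APOE, read 6.36 and 6.31 in control cells and 6.90 and 6.76 in knockdown cells (difference 0.50, SE 0.10, limma adjusted p = 0.134). OLR1, a receptor of oxidised lipoprotein and among the dimmest 40% of genes, lay at -0.46 (SE 0.11). The endocytic adaptor gene EPN2 lay at 0.30 (SE 0.094).

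Of 28 transcription factors and cofactors known to act on these genes, none passed in limma (3 lower and 2 higher at an unadjusted p under 0.05), with a median of 0.024. PPARG, a lipid-activated nuclear receptor, read 8.45 and 8.47 in control cells and 9.19 and 9.08 in knockdown cells (difference 0.68, SE 0.097, limma adjusted p = 0.0838). MLXIPL, the glucose-responsive factor ChREBP, read 6.86 and 6.79 in control cells and 7.45 and 7.73 in knockdown cells (difference 0.76, SE 0.12, limma adjusted p = 0.0987). NR2F1, an orphan receptor of the COUP-TF family, lay at -0.44 (SE 0.11, limma adjusted p = 0.187). NR0B2, a bile acid-induced corepressor named after its values were seen, read 7.26 and 7.42 in control cells, 7.57 in knockdown replicate 1 and 8.73 in replicate 2 (difference 0.81, SE 0.35, limma adjusted p = 0.364).

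**Figure D5:**
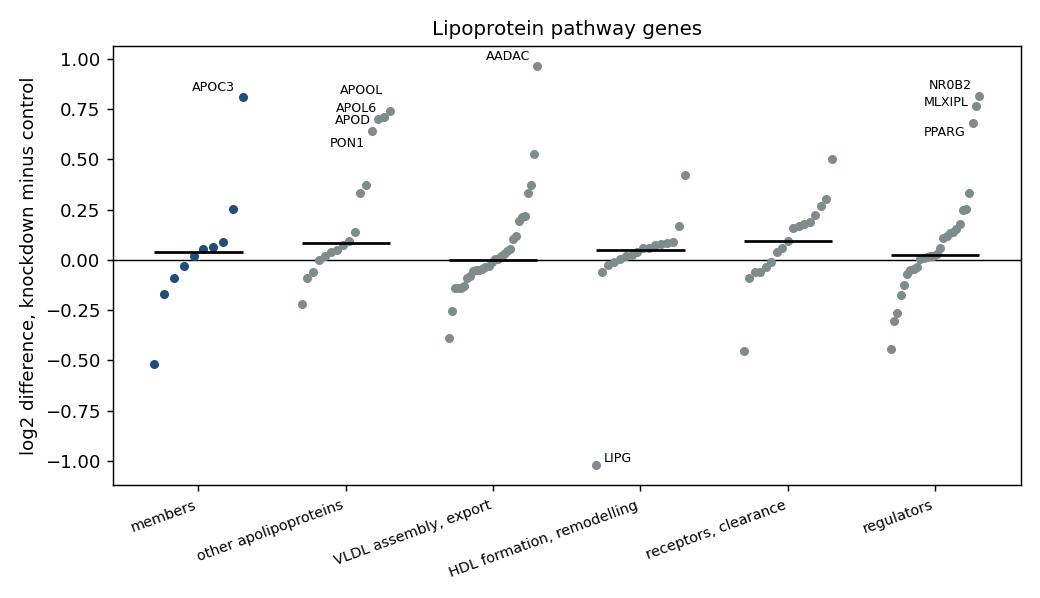
Log2 difference of knockdown from control for the 10 members (blue) and the 5 lipoprotein lists (grey), each gene a point ordered by value within its list, with list medians as lines and names where the difference exceeds 0.6. Medians lie between -0.0031 and 0.094, and LIPG is the lowest gene at -1.02.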

How the data were processed

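RNA of 4 HuH7 cultures was hybridised to 1-colour arrays, 1 array per sample. The deposited values are log2 expression, for 33297 probes; that scale was inferred from their range (1.03 to 13.65). The submitters' processing notes name Partek; the normalization is not given in the sources used. The table used holds no detection calls, and the number of arrays limits the precision.

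Of the probes, 19460 list 1 gene symbol in the platform annotation, 1754 list several and 12083 have no entry. Entrez identifiers gave current symbols (19429 found in RefSeq, GRCh38.p14, used for names and gene order). Per gene the probe of highest mean was kept, giving 18417 genes. Of the 10 members, 4 had several probes. Listed genes without a single-gene probe were not analysed here.

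Differences were fitted by lmFit and eBayes of limma 3.58.1 (R 4.3.3), with a two-sided test of group and no covariate (2 residual and 4.12 prior degrees of freedom, Benjamini-Hochberg over all genes). The procedure was tested on simulated data. Errors in parentheses are limma's standard errors (SE). Members and lists were chosen with earlier results of these data known. Named genes are all members, the shRNA targets, SRF, and in each pathway list the genes that passed or else the 3 with the smallest p, with the 3 genes of most similar values to MTTP. The other neighbours on chromosome 11, APOC1, AADAC, NR0B2, the genes like APOC3 and APOM, and the markers were named outside that rule, after their values were seen. Proteins' sequences were not used here. Alternatives were filters, normalizations, moderation, a threshold of 0.1, probe averaging, a replicate block and leaving out each array.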

Additional observations from a re-analysis of the deposited data

How the results depend on the processing

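No member passed an adjusted p of 0.05 in limma in any setting that used all 4 arrays (1 of 10 at an unadjusted p under 0.05, or 0 without variance moderation). That 1 was MTTP, except with the replicate block, where it was APOC3 (limma unadjusted p = 0.00991) and MTTP had 0.0731. Leaving out each array in turn gave 0 to 1. These were APOM without knockdown replicate 1 and APOC3 without knockdown replicate 2. Over the sets of 3 arrays the log2 difference ran from 0.19 to 1.44 for APOC3 and from -0.94 to -0.10 for APOM. It changed sign for APOA4 (-0.037 to 0.17), APOA5 (-0.032 to 0.14), APOE (-0.092 to 0.13) and APOH (-0.12 to 0.064), and APOH was 0.016 after quantile normalization. APOA1, APOA2, APOB, MTTP, APOC3 and APOM kept their direction in every setting run. With 3 arrays, the lone array of a group is assumed to vary like the other group. Without a knockdown array, the gap between the knockdown arrays of APOC3 and APOM no longer counts in their spread.

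The count over all genes was 32, and it was 52 after quantile normalization, 144 at a threshold of 0.1 and 0 without variance moderation (1840 at an unadjusted p under 0.05), and 0 to 781 over the sets of 3 arrays, with 0 in limma without either control array (unadjusted p under 0.05 for 866 and 1219), 299 without knockdown replicate 1 and 781 without knockdown replicate 2. The pathway count of 1 was 5 at a threshold of 0.1, 0 without variance moderation and 0 to 11 over the sets of 3 arrays (0 without either control array, 4 without knockdown replicate 1, 11 without knockdown replicate 2). The causes of these shifts were not tested. With the replicate number as a block, 93 genes passed, with 2 on the pathway and neighbour lists (LIPG and TAGLN) and no member. No label says that equal numbers pair samples, and deviations of same-numbered arrays correlated at -0.067 over genes.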
